A study of Canis lupus familiaris with 10 samples.

Results

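The nuclear-encoded oxidative phosphorylation (OXPHOS) genes of canine cutaneous histiocytoma (CCH) were chosen by symbol, as every gene named for a subunit of respiratory complex I to V plus the complex I assembly factors whose symbols share the NDUFA stem. The rule found 81 rows with 79 distinct symbols among the 23266 genes of the deposited table. They comprised 38 complex I subunit rows, 8 complex I assembly factors, 4 complex II, 6 complex III, 10 complex IV and 15 complex V rows. NDUFA4 and NDUFA4L2 carry a complex I name but were placed in complex IV, where the NDUFA4 protein is found. Of the 81 rows, 78 passed the filter on low values, and COX4I2, COX6A2 and ATP5I did not. Subunits of these complexes that the table does not list under these names were not analysed here, and neither were the 13 subunits encoded by mitochondrial DNA.

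CCH is a benign skin tumor of dogs that arises from Langerhans-type dendritic cells and often regresses as lymphocytes enter it. QuantSeq 3′ RNA-Seq was performed on formalin-fixed, paraffin-embedded (FFPE) tumors of 10 privately owned dogs of several breeds, and "CCH early versus late" is the only comparison. The early group held 5 tumors of stage group 1 from dogs aged 0.5 to 5 years, as far as given (4 dogs), and the late group held 5 tumors of stage group 3, named lymphocyte enriched, from dogs aged 1.5 to 9 years. All tumors were surgical specimens with no genetic change or treatment named in the labels, and whole cross sections were used after tumor-adjacent tissue had been removed.

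In oxidative phosphorylation, complexes I and II pass electrons from NADH and succinate to ubiquinone, complex III passes them on to cytochrome c, and complex IV passes them to oxygen. Complexes I, III and IV pump protons across the inner mitochondrial membrane, and complex V uses the resulting gradient to make ATP. Most subunits are encoded in the nucleus and imported, and they are assembled with subunits made inside the mitochondrion.

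The libraries held 2973125 to 4439709 reads assigned to genes. Marker lists were chosen with earlier results of these data known. The T cell markers (11 genes) summed to a normalized read count of 79.97 to 2511 in early and 3702 to 6189 in late CCH. The Langerhans and dendritic cell markers (9 of 10 listed genes) summed to 1130 to 2718 and 407 to 938, and neither list overlapped. In the latter list CCR6 was the most abundant (means 784 and 250). EPCAM (36.2 and 34.8) and ITGAE (19.9 and 17.4) differed little, and CD1C was higher in late CCH (3.55 and 7.20). B cell and plasma cell markers (9 genes) summed to 207 to 481 and 549 to 2901. Macrophage markers (9 genes) overlapped, at 2587 to 11070 and 5878 to 11364. CD207, a defining Langerhans cell marker, was not analysed here. The DV200, the percentage of RNA fragments above a set length, averaged 68.5% ± 2.46 for the early and 73.2% ± 2.09 for the late tumors (SD, n = 5 each). The study lists the early and the late tumors in different RNA extraction batches and library index sets, each with tumors of only 1 stage, so that these batches and the stage cannot be told apart. The part of cell composition and of RNA quality in the differences below was not tested, and fewer cells of a type and less RNA per cell cannot be told apart in tissue libraries.

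The OXPHOS genes together took nearly the same share of the reads at both stages. The share was 1.06%, 0.865%, 1.04%, 0.952% and 0.865% in early libraries 1 to 5 and 0.973%, 1.01%, 0.859%, 0.984% and 1.05% in late libraries 1 to 5. The stages overlapped almost fully, and the means of 0.958% ± 0.095 in early and 0.976% ± 0.073 in late CCH (SD, n = 5 each) differed by less than either SD. Complex I subunits accounted for 0.422% ± 0.039 at the early and 0.421% ± 0.028 at the late stage, and complex V subunits took 0.292% ± 0.037 and 0.305% ± 0.030. Complex II, the smallest of the complexes, took 0.0304% ± 0.0054 in early and 0.0325% ± 0.0047 in late CCH. Among these classes, the complex I assembly factors showed the widest relative separation, with 0.0277% ± 0.0033 in early and 0.0251% ± 0.0016 in late CCH, and their libraries overlapped as well. On normalized read counts the log2 ratio of their sums was -0.24, and it was -0.03 without NDUFAF3, the most abundant of them.

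**Figure D1:**
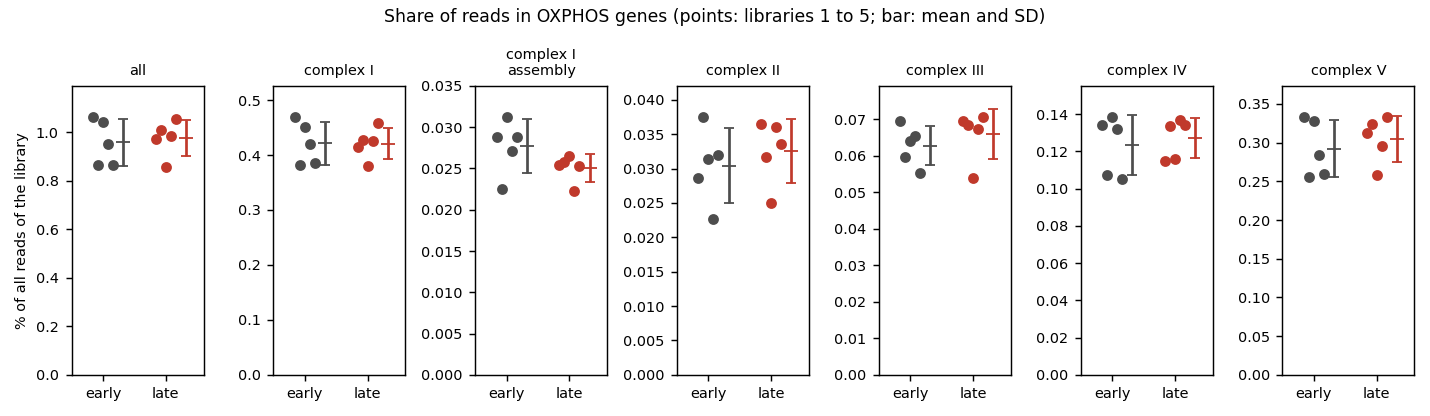
Share of all reads of a library that fell in OXPHOS genes, in percent, for all 81 rows and for each class, with a separate scale per panel that starts at 0. Points are libraries 1 to 5 of each stage and bars show the mean and SD; the 5 early and 5 late libraries overlap in every panel.

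QuantSeq 3′ yields 1 fragment per transcript, so the level of a gene does not grow with transcript length and levels of different genes can be set side by side, within the limits of how well each 3′ end is annotated. ATP5B, the catalytic beta subunit of complex V, was the most abundant gene with a mean normalized read count of 2094 over the 10 libraries. It was followed by ATP5L, subunit g of the membrane part (1545), ATP5A1, the alpha subunit (1160.4), NDUFS5, an accessory subunit of complex I (1131), and NDUFA4 (1029). The median of the mean levels was 285.5 over the 78 members tested and 89.17 over all 12397 genes tested.

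Between early and late CCH, no OXPHOS gene was called, and most differences were small. The call combined 2 criteria in limma, a p of at most 0.05 after Benjamini-Yekutieli (BY) adjustment and a log2 fold change (log2FC, late minus early on the log2(normalized read count + 1) scale) of at least 1 in size. It was met by 0 of 78 members, against 2.17% of all genes tested (1.06% higher and 1.11% lower in late CCH). Without the criterion on log2FC the count was also 0 of 78, against a background of 2.44%. With an unadjusted p of at most 0.05 in limma, 6 members were higher in late CCH (background 15.6%) and 13 were lower (background 15.3%), which is 7.69% and 16.7% of the members. The higher count was 11 with scaling by column totals and 3 without late library 2. In either direction these were 19 members, or 24.4%, against a background of 30.9%. The edgeR quasi-likelihood test called 0 members (background 1.39%) and passed 0 at any log2FC (background 1.53%). DESeq2 also called 0 (background 6.53%) and passed 2 at any log2FC, NDUFA2 and NDUFC1 (background 9.39%). The lowest unadjusted p of a member in limma was 0.000525, for NDUFC1, and the largest p that passed the BY adjustment over all genes was 0.000121.

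The log2FC of the 78 members ran from -0.83 for NDUFAF6 to 0.81 for NDUFV3, with 34 above and 44 below 0. Their median was -0.03, against -0.004 over all genes tested. The median standard error was 0.173 for the members and 0.286 for all genes tested, and the members also had the higher levels given above. The 95% confidence interval of the log2FC lay within -1 and 1 for 65 of 78 members (83.3%), against 45% of all genes tested, so that a change of more than 2-fold was outside the interval for these 65. The interval of the other 13 reached beyond -1 or 1. They were NDUFA1, NDUFA1_1, NDUFS3, NDUFS7, NDUFV3, NDUFAF1, NDUFAF6, NDUFAF8, SDHD, COX7A1, NDUFA4L2, ATP5E and ATP5S.

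**Figure D2:**
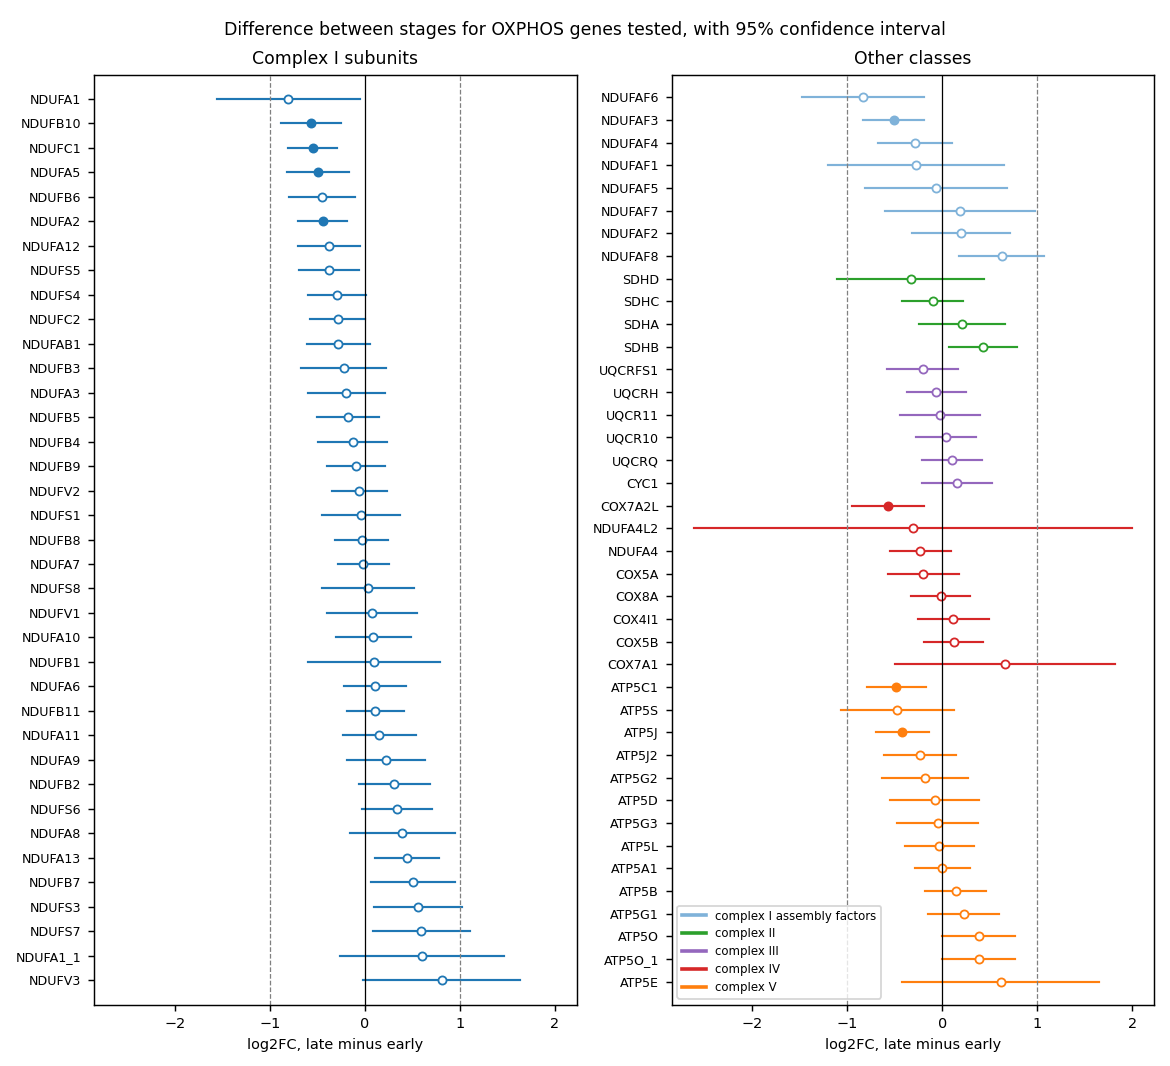
Log2FC of 77 of the 78 OXPHOS genes tested, late minus early on the log2(normalized read count + 1) scale, with the 95% confidence interval from limma; dashed lines mark a log2FC of -1 and 1 and filled points have a Benjamini-Hochberg (BH) adjusted p of at most 0.05. All plotted point estimates lie between -0.83 and 0.81, and the 8 filled points are all below 0.

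With the less strict BH adjustment over all 12397 genes, 8 of 78 members (10.3%) passed at 0.05 as lower in late CCH, against 7.69% of all genes tested, and 0 passed as higher, against 7.92%. The 8 were the complex I subunits NDUFC1, NDUFB10, NDUFA2 and NDUFA5, the assembly factor NDUFAF3, the complex IV gene COX7A2L and the complex V subunits ATP5C1 and ATP5J. In each of them all 5 late values lay below all 5 early values. That pattern held for 9 members in all (background 6.05%), the other being NDUFA12, and the opposite pattern held for 1, NDUFAF8 (background 5.91%). As shares of the members these counts are 11.5% and 1.28%, and their difference from the background was not tested. The count of lower members at BH was 1 without early library 3 or 5, 2 without late library 2 or 4, 3 without late library 3, 4 without early library 1, and 2 with scaling by column totals. Higher members at BH appeared under 5 alternatives besides DESeq2. They were NDUFA13 and SDHB without late library 3, NDUFS3 without early library 1, NDUFS7 without late library 1, NDUFA13 and NDUFAF8 with column totals, and NDUFAF8 when only genes with a mean of at least 50 were tested. NDUFA2, NDUFA5, ATP5J and NDUFA12 were singled out after their values were seen.

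Among the complex I subunits, NDUFC1, a small accessory subunit of the membrane arm, had the lowest p. Its normalized read counts were 984, 878, 1034, 1006 and 1099 in early and 659, 660.3, 670.2, 638 and 787 in late CCH (libraries 1 to 5 in order, as for all values below). The late libraries lay close together except library 5, which was the highest of them and still below every early library. The log2FC was -0.55 ± 0.12 (SE), with a BH-adjusted p of 0.0102 and a BY-adjusted p of 0.102 in limma.

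NDUFB10, an accessory subunit of the same arm, had counts of 455, 414, 496, 406 and 503 in early and 303, 299, 269, 275 and 399.7 in late CCH. Late library 5 came within a few counts of the lowest early library, and the other late libraries were well apart from the early ones. The log2FC was -0.56 ± 0.15 (SE) with a BH-adjusted p of 0.0219 in limma. In the RefSeq table of a more recent dog assembly NDUFB10 overlaps RPS2, a ribosomal protein gene, whose log2FC was -0.61 with a BH-adjusted p of 0.0175 in limma. The study describes QuantSeq 3′ libraries as strand-specific. Whether the counting used strand is not given in the sources used here, so reads of the overlapping genes may not be told apart.

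NDUFA2 is an accessory subunit of the peripheral arm, the part that takes up electrons from NADH. Its counts were 799.7, 869, 892, 836 and 818 in early and 677, 636, 599, 527 and 671 in late CCH. The stages did not overlap, and late library 4 was the lowest. The log2FC was -0.44 ± 0.12 (SE) with a BH-adjusted p of 0.0257 in limma. NDUFA2 overlaps TMCO6 in the same RefSeq table, and TMCO6 had a log2FC of 0.27 with a BH-adjusted p of 0.565 in limma.

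NDUFA5, another accessory subunit of the peripheral arm, had counts of 359.9, 275, 405, 301 and 282 in early and 227, 221, 201, 243 and 249.7 in late CCH. Early libraries 1 and 3 were high, and the gap between the stages was narrow, with late library 5 just below early library 2. The log2FC was -0.49 ± 0.15 (SE) with a BH-adjusted p of 0.0421 in limma. NDUFA12, also an accessory subunit, had counts of 510.3, 458, 478, 410.4 and 414 in early and 372, 372, 254, 391 and 375 in late CCH, with late library 3 far below the rest. Its log2FC of -0.38 ± 0.15 (SE) did not pass the BH adjustment (adjusted p = 0.107 in limma). NDUFS5, the most abundant complex I gene, had counts of 1305, 1001, 1408, 1562 and 1134 in early and 926, 920.0, 1144, 924 and 988 in late CCH, which overlapped between the stages, and a log2FC of -0.37 ± 0.14 (SE, BH-adjusted p = 0.0991 in limma).

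**Figure D3:**
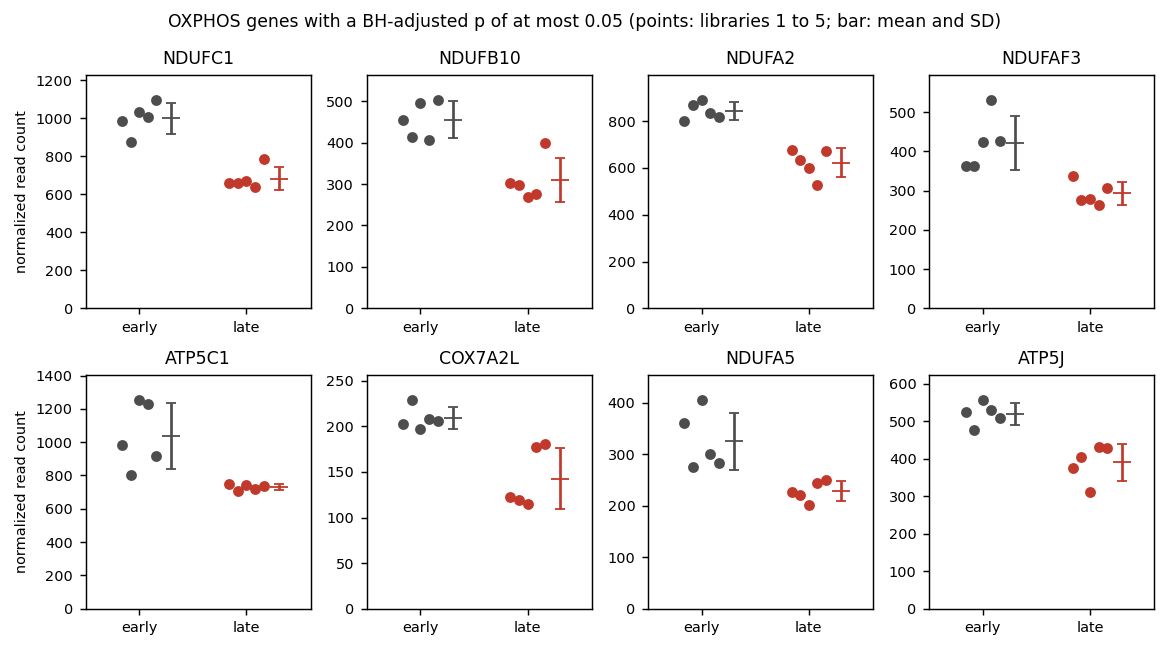
Normalized read counts of the 8 OXPHOS genes with a BH-adjusted p of at most 0.05, with a separate scale per panel that starts at 0. Points are libraries 1 to 5 of each stage in order and bars show the mean and SD (n = 5); in all 8 panels every late point lies below every early point.

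Not all complex I subunits pointed the same way. Of the 38 rows, 18 had a log2FC above and 20 below 0, with a median of -0.03. NDUFS3, a core subunit of the peripheral arm, had counts of 119.9 ± 35.9 in early and 172 ± 19.9 in late CCH (SD, n = 5 each), and NDUFS7, a core subunit that holds an iron-sulfur cluster, of 105 ± 15.4 in early and 166 ± 52.5 in late CCH. Their log2FC values were 0.56 ± 0.21 and 0.60 ± 0.24 (SE), and neither passed the BH adjustment (adjusted p = 0.0925 and 0.107 in limma). The accessory subunits NDUFA13 and NDUFB7 had log2FC values of 0.44 ± 0.15 and 0.51 ± 0.20 (SE), with BH-adjusted p-values of 0.07 and 0.113 in limma. These 4 genes and SDHB and NDUFAF8 were the 6 members with an unadjusted p of at most 0.05 and higher values in late CCH, and the first 4 were named after their values were seen.

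The highest log2FC of all members belonged to NDUFV3, an accessory subunit of the NADH-binding module, and 1 library set its size. Its counts were 80.9, 92.1, 76, 104 and 107 in early and 84.5, 125, 148, 135 and 502 in late CCH. Late library 5 was more than 3-fold above the next late library, late libraries 2, 3 and 4 lay above the early range, and late library 1 lay within it. The log2FC was 0.81 ± 0.38 (SE) with a 95% confidence interval of -0.02 to 1.63 and a BH-adjusted p of 0.17 in limma, and it was 0.40 without late library 5.

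NDUFA1, a small accessory subunit encoded on the X chromosome in mammals, occupied 2 rows of the table, NDUFA1 and NDUFA1_1, with different values. The counts of NDUFA1 were 154, 224, 274, 96.1 and 267 in early and 57.7, 204, 111, 102 and 110.2 in late CCH, and those of NDUFA1_1 were 767, 147, 245, 611 and 208 in early and 447, 356, 568, 532 and 597 in late CCH. The share of the first row in the sum was 16.7%, 60.4%, 52.8%, 13.6% and 56.2% in early and 11.4%, 36.4%, 16.4%, 16.1% and 15.6% in late CCH, so that the split between the rows varied more than the sum did. The log2FC was -0.80 ± 0.35 for NDUFA1 and 0.60 ± 0.40 for NDUFA1_1 (SE), in opposite directions, and 0.11 ± 0.22 for the sum. Neither row passed the BH adjustment (adjusted p = 0.136 and 0.329 in limma). How reads were divided between the rows is uncertain, and a difference of a single row is therefore not a difference of the gene.

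**Figure D4:**
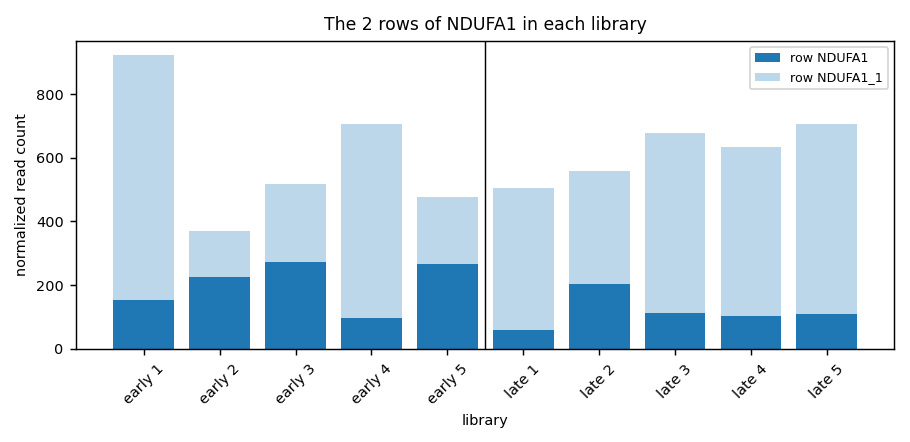
Normalized read counts of the rows NDUFA1 (dark) and NDUFA1_1 (light), stacked, in each of the 10 libraries on a linear axis that starts at 0. The dark row holds 11.4% to 60.4% of the sum, with the highest shares in early libraries 2, 3 and 5.

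The complex I assembly factors are needed to build the complex but are not part of it. Of the 8, 3 had a log2FC above and 5 below 0, with a median of -0.17. NDUFAF3, which acts in an early step of assembly, had counts of 362, 363, 423, 532 and 426 in early and 338, 276, 279.9, 264 and 306 in late CCH. Late library 1 was the highest late library and lay below every early one. The log2FC was -0.51 ± 0.15 (SE) with a BH-adjusted p of 0.0328 in limma. IMPDH2, an enzyme of guanine nucleotide synthesis, lies within 2 kb of NDUFAF3 in the RefSeq table and had a log2FC of -0.83 with a BH-adjusted p of 0.0137 in limma. Reads left unassigned were counted on genes extended downstream by the authors, so that the counts of close neighbors may not be independent.

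NDUFAF8 was the only member with all late values above all early values. Its counts were 117, 68.9, 101, 66.2 and 118 in early and 153, 150.3, 132, 141 and 132 in late CCH, and early libraries 1 and 5 came close to the lowest late libraries. The log2FC was 0.62 ± 0.20 (SE) with a BH-adjusted p of 0.0567 in limma. NDUFAF6 had the lowest log2FC of all members, -0.83 ± 0.30 (SE, BH-adjusted p = 0.0762 in limma), from counts of 63.8, 48.4, 68.7, 39.4 and 68.7 in early and 18.9, 34.3, 27.1, 32.7 and 51.4 in late CCH. The stages overlapped, and late library 1 was the lowest. NDUFAF2, the other assembly factor with a higher late mean by the naming rule, had a log2FC of 0.20 ± 0.24 (SE, BH-adjusted p = 0.618 in limma).

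In complex II, which links the tricarboxylic acid cycle to the respiratory chain, 2 subunits had a log2FC above and 2 below 0. SDHB, the iron-sulfur subunit, had counts of 117, 115, 135, 134 and 129 in early and 163, 191, 125, 190.2 and 187 in late CCH. The lowest late library lay among the early ones. The log2FC was 0.43 ± 0.16 (SE) with a BH-adjusted p of 0.0993 in limma. SDHA, the flavoprotein that oxidizes succinate, had a log2FC of 0.21 ± 0.21, and SDHC, a membrane anchor, one of -0.10 ± 0.15 (SE). SDHD, the other membrane anchor, was the most variable of the 4 among early tumors, with counts of 168, 311, 195, 59.9 and 221 in early and 128, 103, 132, 178 and 137 in late CCH. Early library 4 was far below and early library 2 far above the late range, and the log2FC of -0.33 ± 0.36 (SE) had a 95% confidence interval of -1.11 to 0.44. It was -0.70 without early library 4 and -0.11 without early library 2.

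The complex III genes had the narrowest range of log2FC of the classes, from -0.21 to 0.15. All 6 had a 95% confidence interval within -1 and 1, 3 had a log2FC above and 3 below 0, and the median was 0.01. CYC1, the cytochrome c1 subunit, had counts of 161 ± 23.5 in early and 179 ± 28.9 in late CCH (SD, n = 5 each) and a log2FC of 0.15 ± 0.17 (SE). UQCRFS1, the Rieske iron-sulfur protein, had counts of 333 ± 40.3 in early and 292 ± 70.6 in late CCH and a log2FC of -0.21 ± 0.17 (SE). The small subunits UQCRH, UQCRQ and UQCR10 had log2FC values of -0.06 ± 0.14, 0.10 ± 0.15 and 0.04 ± 0.14 (SE). The smallest BH-adjusted p among CYC1, UQCRFS1, UQCRH, UQCRQ and UQCR10 in limma was 0.453, for UQCRFS1. UQCRH, the hinge protein, stood highest in early library 4, from counts of 542, 555, 603, 797 and 538 in early and 545, 561, 511, 636 and 632 in late CCH.

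In complex IV, 8 of the 10 rows were tested, 3 with a log2FC above and 5 below 0, and the median was -0.11. COX7A2L, which helps join complexes III and IV into supercomplexes, had counts of 203, 229, 197, 208 and 206 in early and 122, 119, 114, 177 and 180.5 in late CCH. Late libraries 1, 2 and 3 were clearly lower than all others, and late libraries 4 and 5 were just below the early range. The log2FC was -0.57 ± 0.17 (SE) with a BH-adjusted p of 0.0418 in limma. The large contributors NDUFA4, COX4I1, COX8A and COX5B had mean counts of 1029, 1011, 791 and 782 over all libraries. Their log2FC values were -0.23 ± 0.15, 0.12 ± 0.17, -0.02 ± 0.14 and 0.12 ± 0.14 (SE), and none passed the BH adjustment (smallest adjusted p = 0.311 in limma).

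Complex IV also has isoforms that are typical of certain tissues or conditions, and these had low counts. COX6A2, the heart and skeletal muscle isoform of subunit 6A, had 13 reads in the 10 libraries together, and the normalized read count did not exceed 4.29 in any of them. COX4I2, the isoform of subunit 4 known from lung and from low oxygen, had counts of 5.71, 4.65, 2.71, 11 and 4.29 in early and 6.96, 13.3, 5.81, 11.2 and 7.34 in late CCH, far below COX4I1 in every library. A count of 0 allows up to 3 reads, which correspond to a normalized read count of 2.36 to 3.22. Skeletal muscle markers (9 genes) summed to 0 to 30.8 in early and 0 to 22.3 in late CCH, and MYH1 and MYH2 were at 0 in all libraries.

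COX7A1, the muscle isoform of subunit 7A, had counts of 13.3, 7.44, 18.1, 8.66 and 6.44 in early and 12.9, 11.4, 8.72, 57.3 and 15.7 in late CCH. Late library 4 was more than 3-fold above every other library, and without it the log2FC of 0.66 ± 0.53 (SE) was 0.23. In that library the skeletal muscle markers summed to 5.11 and the adipocyte markers to 43.97, each within the range of the other libraries. The muscle sum rests on few reads, and the cause of the high COX7A1 value was not tested. NDUFA4L2, the NDUFA4 paralog known from low oxygen, had counts of 25.7, 29.8, 3.62, 19.7 and 15 in early and 17.9, 64.7, 3.87, 0 and 70.3 in late CCH. It was at 0 in late library 4 and high in late libraries 2 and 5, and its 95% confidence interval of -2.62 to 2.00 was the widest of all members. On the log2 scale its late mean was lower (log2FC -0.31 ± 1.06, SE), while the mean count was higher in late CCH (18.8 ± 10.2 in early and 31.4 ± 33.7 in late CCH; SD).

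In complex V, 14 of the 15 rows were tested, 5 with a log2FC above and 9 below 0, and the median was -0.04. ATP5C1 encodes the gamma subunit, the central shaft that turns within the catalytic head. Its counts were 984, 801, 1254, 1229 and 915 in early and 752, 706, 742, 719.9 and 734 in late CCH. The late libraries were within a narrow range, and the early libraries were spread widely above it. The log2FC was -0.48 ± 0.14 (SE) with a BH-adjusted p of 0.0392 in limma.

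ATP5J encodes a subunit of the outer stalk, known as coupling factor 6, and its counts were 525, 477, 557, 531 and 508 in early and 375, 404, 312, 433 and 428 in late CCH. Late library 3 was the lowest, and the gap between the stages was small. The log2FC was -0.42 ± 0.13 (SE) with a BH-adjusted p of 0.047 in limma. For the partners ATP5B and ATP5A1 of ATP5C1 in the catalytic head, the means of the stages differed by less than the SD of the late libraries. For ATP5B the difference was larger than the SD of the early libraries. ATP5B had counts of 1979.7 ± 171 in early and 2208 ± 371 in late CCH (SD, n = 5 each) and a log2FC of 0.14 ± 0.15 (SE), and ATP5A1 had counts of 1159 ± 118 in early and 1162 ± 147 in late CCH and a 95% confidence interval of the log2FC of -0.29 to 0.29. ATP5A1 and ATP5G1 were named after their values were seen.

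ATP5L had a log2FC of -0.03 ± 0.17 (SE) and ATP5G1, which encodes the ring subunit c, one of 0.22 ± 0.17. ATP5E, the small epsilon subunit of the head, varied most within the stages among the complex V genes tested, with counts of 97.1, 18.6, 132, 117 and 48.3 in early and 81.5, 123, 107, 169 and 66.1 in late CCH. Early library 2 was the lowest, and the log2FC of 0.61 ± 0.48 (SE) was 0.16 without it. ATP5S, a coupling factor, had a log2FC of -0.47 ± 0.27 (SE, BH-adjusted p = 0.266 in limma). ATP5I, subunit e, was nearly undetected with 6 reads in the 10 libraries together.

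ATP5O, the stalk subunit that attaches to the head, was listed as ATP5O and ATP5O_1, and the rows had equal reads in all 10 libraries. They were therefore a single measurement that counted as 2 of the 78 members. Reads with several mapping places were divided evenly, so either row may hold only a part of the reads of the gene. The counts of either row were 193, 123, 165, 159.9 and 141 in early and 157, 224, 193, 252 and 195 in late CCH, with late libraries 2 and 4 the highest. The log2FC of either row was 0.38 ± 0.18 (SE), with an unadjusted p of 0.0513 and a BH-adjusted p of 0.165 in limma. For the sum of the rows it was 0.38 ± 0.17 (SE), with an unadjusted p of 0.0404 in limma. The counts of members given above are per row and do not include this sum.

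The libraries themselves differed in the level of OXPHOS genes within each stage. Of the 78 members tested, 26 were lowest in late library 3, 17 in early library 2 and 9 in early library 5, and 15 were highest in early library 1. The same counts over all genes tested are not given here, so these counts are not shown to be particular to the OXPHOS genes. The median deviation of the members from their own mean was -0.22 on the log2 scale in late library 3, -0.11 in early library 2 and 0.18 in early library 1. In late library 3 the proliferation markers (10 genes) summed to 1630 and the keratinocyte markers (9 genes) to 713, each the lowest of the 10 libraries. The adipocyte markers (7 genes) summed to 345 and the B cell and plasma cell markers (9 genes) to 2901 there, each the highest. Their part in the OXPHOS levels was not tested. Without late library 3 the median log2FC of the members was 0.05, and that of all genes tested was 0.008.

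**Figure D5:**
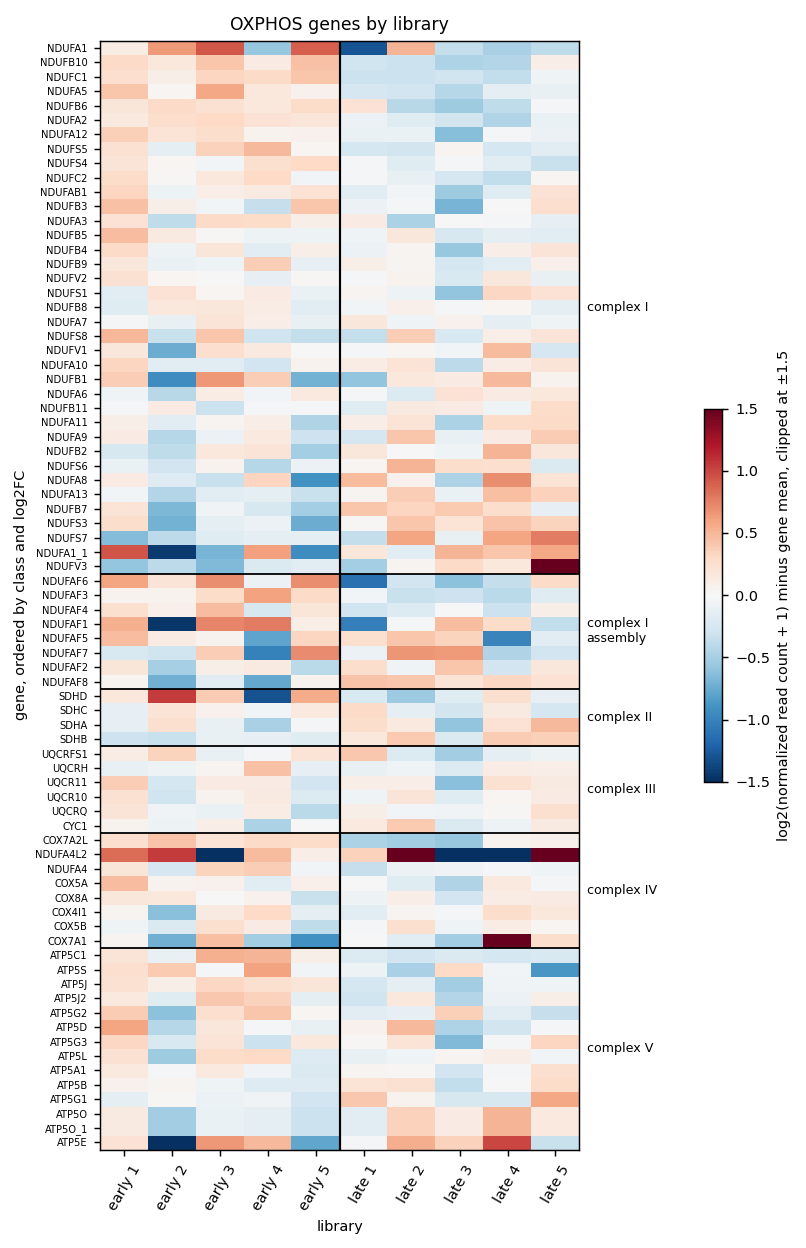
Deviation of 77 of the 78 OXPHOS genes tested (rows, by class and log2FC) from their own mean over the 10 libraries (columns), as log2(normalized read count + 1), with the color scale ended at ±1.5. The rows of each class start with the lowest log2FC, so higher early values in upper rows follow from this order. Over all 78 genes, late library 3 is the lowest library for 26 and early library 2 for 17. The same counts for all genes tested are not given.

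Lists of related genes were set beside the OXPHOS genes. Electron carriers and further respiratory assembly factors (28 genes tested) had a median log2FC of -0.22, with 10 above and 18 below 0, against -0.004 over all genes tested. By the BH adjustment in limma 1 of the 28 was higher and 4 were lower in late CCH. Over all genes tested these shares were 7.92% and 7.69%, and no list was tested against them. COX11, which delivers copper to complex IV, was the only gene of the related lists that was called in limma (background 2.17%). Its counts were 230.4, 189, 166, 213 and 207 in early and 69.6, 79, 65.9, 107 and 87.1 in late CCH, without overlap, and it fell with a log2FC of -1.30 ± 0.18 (SE, BY-adjusted p = 0.0157 in limma). The BY-adjusted p rose above 0.05 without early library 1 or 5 or late library 2, to at most 0.0628. STXBP4, which overlaps COX11 in the RefSeq table, had a log2FC of -0.33 with a BH-adjusted p of 0.572 in limma.

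Of the same list, the complex II assembly factors SDHAF1, SDHAF3 and SDHAF4 passed the BH adjustment as lower in late CCH. SDHAF1, which serves the iron-sulfur clusters of SDHB, had counts of 206, 177, 199, 254 and 238 in early and 145, 98, 163, 93.1 and 106 in late CCH, and the stages did not overlap. Its log2FC was -0.85 ± 0.20 (SE, BH-adjusted p = 0.0137 in limma). SDHAF3, known for the same step, had a log2FC of -0.98 ± 0.24 (SE, BH-adjusted p = 0.0172), and SDHAF4, which binds SDHA, one of -0.90 ± 0.22 (SE, BH-adjusted p = 0.0175) in limma. SDHA and SDHB, the subunits that these factors serve, had log2FC values above 0 (given above). SDHAF2, the remaining assembly factor of complex II, had counts of 142 ± 25.6 in early and 128 ± 7.4 in late CCH (SD, n = 5 each) and a log2FC of -0.13 ± 0.17 (SE, BH-adjusted p = 0.652 in limma). TTC19, a factor of complex III, was higher by the BH adjustment, with a log2FC of 0.74 ± 0.21 (SE, adjusted p = 0.0321 in limma). ETFB, a subunit of the electron transfer flavoprotein, had a log2FC of 0.50 ± 0.23 (SE, BH-adjusted p = 0.163 in limma).

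Among the enzymes of the tricarboxylic acid cycle and pyruvate dehydrogenase (17 tested, median log2FC 0.09), 1 was higher and 1 lower by the BH adjustment. The background over all genes tested was 7.92% higher and 7.69% lower in limma. IDH3G, a regulatory subunit of isocitrate dehydrogenase, had counts of 95.9 ± 22.2 in early and 184 ± 29.8 in late CCH (SD, n = 5 each) and a log2FC of 0.94 ± 0.20 (SE, BH-adjusted p = 0.00851 in limma). SUCLA2, the ATP-forming subunit of succinyl-CoA ligase, had counts of 116 ± 23.3 in early and 67.9 ± 8.65 in late CCH and a log2FC of -0.75 ± 0.19 (SE, BH-adjusted p = 0.021 in limma). SUCLG2, its GTP-forming counterpart, and DLST, a subunit of the oxoglutarate dehydrogenase complex, had log2FC values of -0.35 ± 0.16 and 0.56 ± 0.22 (SE), with BH-adjusted p-values of 0.141 and 0.101 in limma.

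Regulators of mitochondrial biogenesis (14 tested) had a median log2FC of -0.07. By the BH adjustment in limma 1 was higher (background 7.92%) and 0 were lower (background 7.69%). TFAM, which packages and transcribes mitochondrial DNA, was the only one that passed the BH adjustment, with counts of 125 ± 25.6 in early and 193 ± 29.5 in late CCH (SD, n = 5 each) and a log2FC of 0.64 ± 0.19 (SE, adjusted p = 0.038 in limma). It was singled out after its values were seen. PPARGC1B, a coactivator of OXPHOS genes, had low counts of 12.1 ± 5.33 in early and 25.9 ± 12.4 in late CCH and a log2FC of 1.04 ± 0.48 (SE, BH-adjusted p = 0.159 in limma), and its paralog PPARGC1A had 1 read in all libraries together. TWNK, the mitochondrial DNA helicase, had a log2FC of 0.83 ± 0.75, TFB2M, a mitochondrial transcription factor, -0.47 ± 0.22 and the coactivator PPRC1 -0.47 ± 0.36 (SE), and the smallest of their BH-adjusted p-values in limma was 0.171.

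Genes of mitochondrial membranes and protein import (18 tested) had a median log2FC of -0.23, with 4 above and 14 below 0. By the BH adjustment in limma 0 were higher (background 7.92%) and 1 was lower (background 7.69%). TOMM20, an import receptor of the outer membrane, had counts of 732, 524, 651, 740.4 and 623 in early and 451, 359, 296, 411 and 424 in late CCH, with no overlap. Its log2FC was -0.76 ± 0.15 (SE, BH-adjusted p = 0.00807 in limma), the only one of the list that passed. IMMT, a scaffold of the inner membrane folds, had a log2FC of 0.61 ± 0.20 (SE, BH-adjusted p = 0.0535 in limma). SLC25A4, an ADP/ATP carrier, and TOMM70, another import receptor, had log2FC values of -0.58 ± 0.21 and 0.21 ± 0.22 (SE), with BH-adjusted p-values of 0.0875 and 0.546 in limma.

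Mitochondrial ribosomal proteins (76 tested), which make the subunits encoded by mitochondrial DNA, had a median log2FC of -0.19, with 20 above and 56 below 0. Only 1 passed the BH adjustment in limma as higher (background 7.92%) and 1 as lower (background 7.69%). By the BH adjustment MRPL34 was lower, with a log2FC of -1.16 ± 0.23 (SE, adjusted p = 0.00703), and MRPS18A was higher, with 0.75 ± 0.23 (SE, adjusted p = 0.0428), in limma. MRPL13 and MRPL24 had log2FC values of -0.69 ± 0.30 and 0.51 ± 0.20 (SE), with BH-adjusted p-values of 0.133 and 0.108 in limma.

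Glycolysis genes (21 tested), the cytosolic route to ATP, had a median log2FC of 0.28, with 14 above and 7 below 0. The BH adjustment in limma passed 2 as higher (background 7.92%) and 1 as lower (background 7.69%). By the BH adjustment, the enolase ENO2 was higher with counts of 18.1, 25.1, 48.8, 30.7 and 50.5 in early and 112, 83.7, 82.3, 77.7 and 99.7 in late CCH, and the stages did not overlap. Its log2FC was 1.46 ± 0.29 (SE, adjusted p = 0.00768 in limma). The aldolase ALDOC was also higher, with a log2FC of 0.77 ± 0.23 (SE, BH-adjusted p = 0.0421 in limma). The glucose transporter SLC2A1 was lower, with a log2FC of -1.43 ± 0.43 (SE, BH-adjusted p = 0.0423 in limma) from counts of 505, 518, 236, 365 and 326 in early and 161, 178, 86.2, 53.2 and 379 in late CCH, where late library 5 lay within the early range. The lactate exporter SLC16A3 had a log2FC of -1.45 ± 0.50 (SE) that missed the BH threshold (adjusted p = 0.0676 in limma).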

How the data were processed

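QuantSeq 3′ libraries of 10 FFPE tumors (5 early, 5 late CCH, each from a different dog) were analysed. The authors trimmed reads with Cutadapt, aligned them with STAR to CanFam3.1, counted them per gene with featureCounts in 2 rounds (the second on extended genes), divided reads with several mapping places evenly and scaled each library by 1 size factor with DESeq2; versions are not given in the sources used here. The deposited values are therefore a normalized signal per gene (normalized read count), not raw counts. All 166096 values above 0 were whole multiples of 1 read (tolerance 0.01), which gave reads for the count tests. Here 1 read was taken as the smallest value above 0 of a library. Evenly divided reads would leave fractions, and how the values became whole is not given in the sources used here. Of 21 columns of values, 11 belong to no sample given here and stayed unused. Columns show the stage but not the sample, so libraries are numbered only to name them, and DV200, age and breed could not be linked to them.

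The 12397 genes that reached a normalized read count of 10 in 5 or more libraries were fitted with limma 3.58.1 (trend) in R 4.3.3 on log2(value + 1), with all 10 libraries and no covariates, and adjusted over all genes with BY, as in the study. The scale understates changes of low genes. edgeR 4.0.16 and DESeq2 1.42.0 on the reads, other pseudocounts, filters and scalings, BH, and leaving out each library were alternatives. The tests were tested on simulated counts. Intervals and limits cover counting error and the spread of these libraries only, since reads carry no molecular identifiers.

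The members and lists were chosen with earlier results of these data known. Named were, per class, the 2 highest and the 2 lowest log2FC and the 2 most abundant genes, isoform pairs, duplicate rows, and per list the 2 highest and the 2 lowest; other names passed a threshold or are marked. Of the 81 rows, 68 matched the RefSeq table of the assembly UU_Cfam_GSD_1.0, used only for neighbors. The values of 1 member are not reported here, although it enters the fit and the counts.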

Additional observations from a re-analysis of the deposited data

Results flagged for a closer look

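Within-stage gaps were checked with Dixon's criterion (0.71 for 5 libraries) in 104 groups, of which chance alone would be expected to flag 5.2, about 1 in 20; 8 were flagged. NDUFB10 had a normalized read count of 399.7 in late library 5, where the next late value was 303.3. NDUFV3 had 501.5 in late library 5 and 148.2 in the next late library. NDUFC1 had 786.9 in late library 5 and 670.2 in the next. COX7A1 had 57.26 in late library 4 and 15.74 in the next. UQCRH had 797.1 in early library 4 and 603.4 in the next. NDUFA4 had 797.5 in late library 1, below the next late value of 958.1. NDUFA12 had 253.7 in late library 3, below the next of 371.9, and the summed count of complex III was 1688 there, below the next of 2096. Late library 5 was the high value in 3 of the 8.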

How the results depend on the processing

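No member was called in any of 23 alternatives (13 settings and 10 fits that leave out a library). At any log2FC the BY-adjusted count of lower members was 2 in DESeq2, and with BH in place of BY it was 8. Members higher at an unadjusted p of at most 0.05 numbered 11 with scaling by column totals, and 3 to 8 with a library left out; lower ones numbered 11 to 15, and the median log2FC ran from -0.068 (without early library 5) to 0.049 (without late library 3).

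Counts with BH were less stable. Lower members numbered 2 with column totals (NDUFB10 and NDUFC1, with 2 others higher), 2 with no filter, 6 in edgeR and 8 in DESeq2 (with 3 higher). NDUFC1 passed BH in all 22 alternatives besides BH itself, with adjusted p from 0.000217 to 0.0325. NDUFB10 passed in 19, NDUFA2 in 16, NDUFAF3 in 14, NDUFA5 in 12, ATP5C1 and COX7A2L in 11 and ATP5J in 10, with the highest adjusted p at 0.108 for ATP5J. All 8 stayed lower in late CCH. The alternative without complex I assembly factors kept the main fit, so a pass there only repeats the main result. It is counted in the 14 for NDUFAF3, although it leaves that gene out of the members. COX11 kept its call in 19, and its highest BY-adjusted p was 0.0628, without early library 5. ENO2 and MRPL34 were called only in DESeq2. Their log2FC there was 1.399 and -1.102, with BY-adjusted p-values of 0.00167 and 0.00179. TFAM and TTC19 passed BH in 13, ALDOC in 15 and SLC2A1 in 10. MRPS18A passed in 12 of the 21 alternatives that tested it.

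Some log2FC values changed sign. With column totals UQCRH was 0.028, ATP5L 0.058, COX8A 0.070 and ATP5A1 0.09, and ATP5A1 was 0.003 in edgeR and 0.003 in DESeq2. NDUFA4L2, at -0.31 in the report, was 0.046 with a pseudocount of 5, 0.736 in edgeR and 0.740 in DESeq2. With a library left out, ATP5A1 ran from -0.059 to 0.07, ATP5L from -0.168 to 0.039, COX4I1 from -0.027 to 0.205, COX8A from -0.107 to 0.051, NDUFA4L2 from -0.912 to 0.627, UQCR10 from -0.029 to 0.102 and UQCRH from -0.101 to 0.041. The log2 ratio of the summed assembly factors was -0.236, and -0.030 without NDUFAF3, the most abundant of them. The causes were not tested.

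No paired analysis was possible because no replicate number stands in the column names and the tumors came from different dogs.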
